A study of Mus musculus with 20 samples.

Results

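The genes examined are the matrix metalloproteinases (Mmp), the ADAMTS proteases, the ADAMTS-like proteins (Adamtsl) and the tissue inhibitors of metalloproteinases (Timp). They were taken as every gene whose symbol in the array's platform annotation is Mmp, Timp, Adamts or Adamtsl followed by a number, on probe sets annotated to a single gene. This gave 42 genes on 78 probe sets, of 18194 genes on the array. The genes were 18 Mmp, 15 Adamts, 5 Adamtsl and 4 Timp genes. Other genes of these families that the annotation used here did not name were not analysed here. Old mice were 25 to 28 months of age and young mice 4 to 6 months, with 10 male C57BL/6J animals at each age. None of the mice carried a named allele or received a named agent. Cardiac ventricle RNA of each mouse was hybridised to 1 Affymetrix GeneChip array, so each array stands for 1 animal.

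Matrix metalloproteinases are zinc-dependent enzymes that cut collagens, fibronectin, proteoglycans and other proteins of the extracellular matrix, and most are made as inactive precursors. ADAMTS proteases carry thrombospondin-type repeats, and several of them cut versican and aggrecan or trim procollagens. ADAMTS-like proteins share the repeats and lack the protease domain. The TIMP proteins block the active site of matrix metalloproteinases, and TIMP3 also blocks several ADAMTS proteases. In the heart such proteins are made mostly by fibroblasts, vascular cells and leukocytes, and they are known for their part in matrix turnover after injury.

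All values are log2 GCRMA signals, in which a transcript that is not detected sits at a low value of its probe set, roughly 2 to 3. A gene counted as detected when a probe set exceeded 4 in at least 10 of the 20 arrays. A log2 difference of 1 is a doubling, and every difference is old minus young. Levels of different probe sets are not comparable with one another, so only differences between arrays are read.

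The labels give ventricle for all mice, but transcripts of atrial muscle were present in most old arrays. The gene of the atrial regulatory light chain of myosin, Myl7, was above 10 in 7 old arrays, at 2.36, 8.27 and 6.58 in old replicates 1, 2 and 7, and at most 2.44 in the young arrays. The called genes and the Timp genes are therefore also given without those 7 arrays, which leaves 3 old and 10 young arrays, and with an index of Myl7 and Sln (sarcolipin) as a covariate. The arrays also fell into 5 sets of 4, each with 2 old and 2 young arrays, whose deviations from the group means correlated; the labels name no batch. Markers of other cells moved with age as well. Of the tested markers, 8 of 9 macrophage genes, 5 of 9 fibroblast genes, 3 of 3 neutrophil genes, 3 of 4 valve and cartilage-like genes, 1 of 1 adipocyte genes and 4 of 4 atrial genes were called higher in old hearts. For smooth muscle and pericytes it was 1 of 8, for endothelium 1 of 8 with 1 lower, for the epicardium 0 of 1 and for cardiomyocytes 0 of 8. The summed linear signal of the 10 fibroblast markers ran from 18695 to 34727 in old arrays and from 16868 to 20496 in young arrays. For the 10 macrophage markers it ran from 4440 to 10724 in old arrays and from 2747 to 4200 in young arrays. The 10 valve and cartilage-like markers summed to between 162 and 1385 in old arrays and between 96.6 and 149 in young arrays, and 5 of them, Acan and Col2a1 included, were below 4 in every array. Of 9 neutrophil markers on the array 6, among them Mpo and Elane, were below 4 in every array, while the sum ran from 265 to 2142 in old and from 66.6 to 951 in young. The 8 smooth muscle and pericyte markers summed to between 10469 and 21800 in old arrays and between 10567 and 15248 in young arrays, and the 5 adipocyte markers to between 64.0 and 28766 in old and between 29.1 and 146 in young. The sum of the 7 epicardial and mesothelial markers ran from 77.0 to 442 in old arrays and from 67.9 to 83.2 in young arrays; Wt1 was the only one of them tested. The other 6 did not pass the detection filter and all had higher means in old arrays, with Upk3b, a mesothelial gene, at 5.55 in old and 2.57 in young. The part of these cells in the results below was not tested. In whole tissue, a change in the number of cells of a type and a change in RNA per cell cannot be told apart.

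Of the 42 genes, 14 were detected: 4 of 18 Mmp, 3 of 4 Timp, 4 of 15 Adamts and 3 of 5 Adamtsl genes. Of the other 28, 20 never exceeded 4 in any array, with values between 2.11 and 3.80. The remaining 8 exceeded it in 1 to 9 arrays. They were Timp1 (9 old and 0 young arrays), the gelatinase gene Mmp9 (4 old and 1 young), Adamts3 (3 old and 0 young), Mmp11 (2 old and 0 young), Adamts4 and Adamts8 (1 old and 0 young each), and Mmp17 and Mmp24 (0 old and 1 young each). The collagenase genes Mmp8 and Mmp13, the macrophage elastase gene Mmp12 and the matrilysin gene Mmp7 were among the 20 that stayed below 4. Apart from Timp1, no gene that missed detection exceeded 4.55 in any array.

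**Figure D1:**
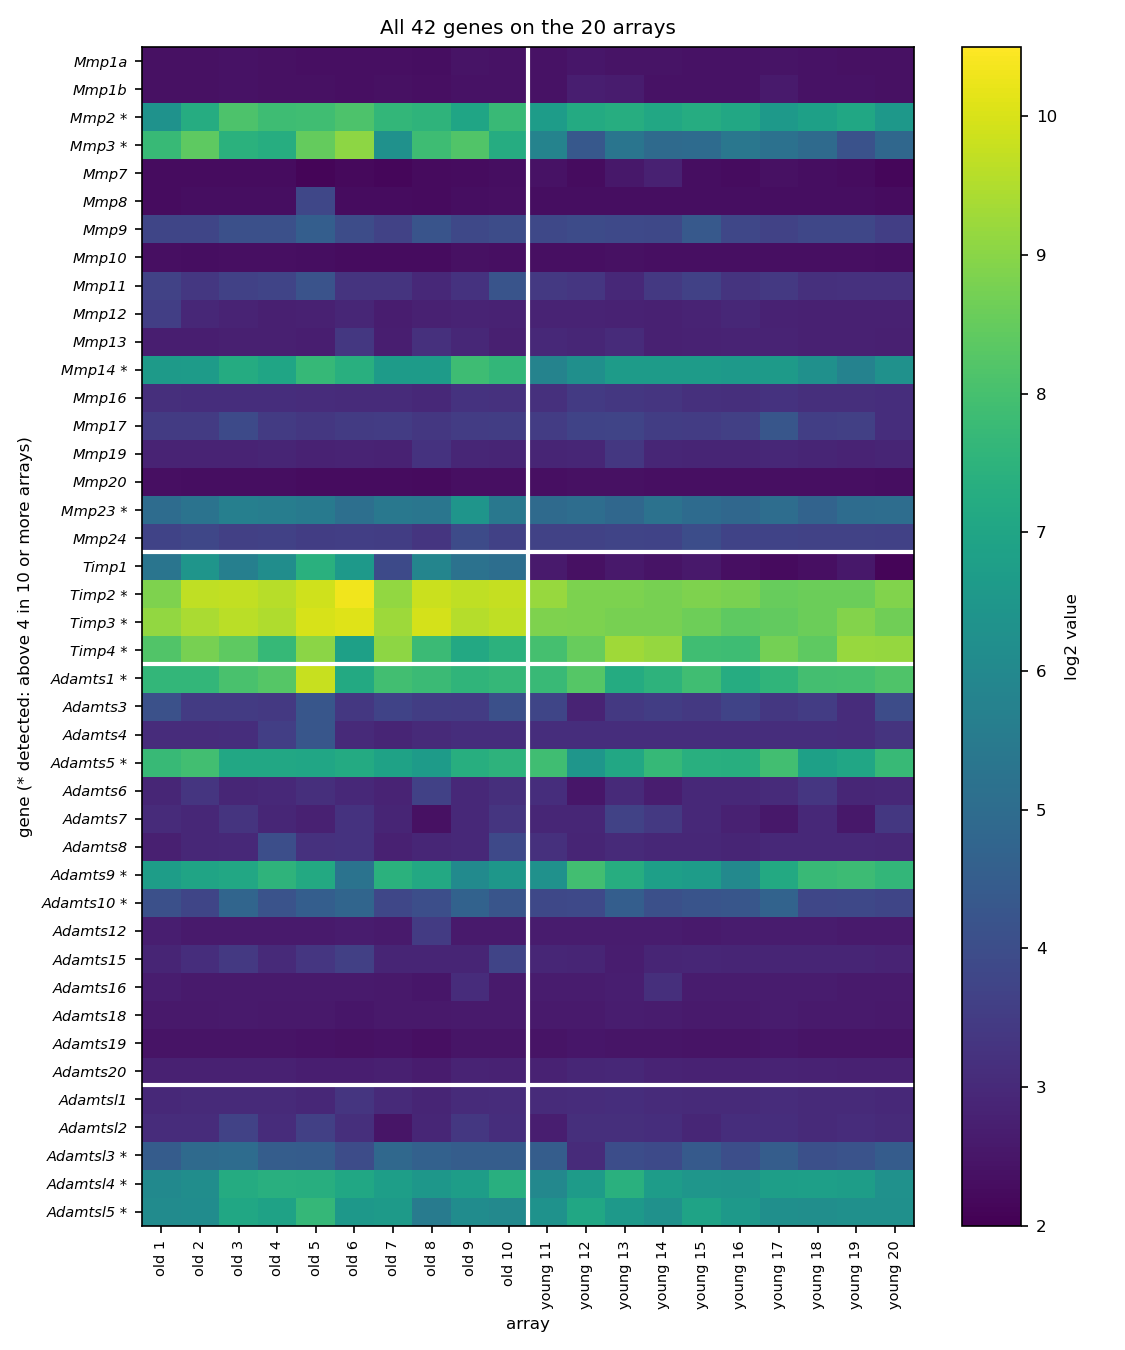
Log2 values of all 42 genes (rows, grouped as Mmp, Timp, Adamts and Adamtsl, asterisk for detected genes) on the 10 old arrays (left) and 10 young arrays (right), with the probe set of highest mean shown for each gene. Colours compare arrays within a row. Most rows stay dark, below 4, in both groups, and the contrast between the ages is clearest in the rows of Mmp3 and Timp1.

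In the comparison of old with young hearts, 7 of the 14 detected genes were higher in old and 0 were lower (limma, Benjamini-Hochberg adjusted p under 0.05 over all 9276 genes tested). The genes called higher were Mmp2, Mmp3, Mmp14, Mmp23, Timp2, Timp3 and Adamtsl3. Over all genes tested, 11.2% were called higher and 7.49% lower. The median log2 difference of the 14 genes was 0.35, against 0.0087 over all genes tested. By family, the counts were 4 of 4 Mmp genes, 2 of 3 Timp genes, 0 of 4 Adamts genes and 1 of 3 Adamtsl genes. Of the 14 genes, 12 had a wider spread among the old arrays than among the young ones. The share over all genes tested was not taken, so this is not read as particular to these genes. The balance of rises and falls over all genes depended on the scaling, with 59.9% of calls being rises as deposited, 43.2% after quantile normalization, 68.6% after centring each array on its median and 42% after centring on the median of the tested genes. All 7 called genes had a positive difference under each of these scalings. With the array sets as a block the same 7 were called, where 36.1% of all genes were called in either direction. The sets were found from the residuals of these same tested genes, so p-values of any fit that uses them can be too small. With the atrial index 3 were called (Mmp3, Timp2 and Timp3), against 3.74% of all genes, 2.81% being higher. Without the 7 old arrays 2 were called (Mmp3 and Timp3), against 2.93% of all genes, 2.25% being higher. With index and sets together 3 were called (Mmp3, Mmp14 and Timp3), against 6.24% of all genes.

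Mmp3 showed the largest difference of the detected genes. It encodes stromelysin 1, which cuts proteoglycans, fibronectin and laminin and activates other metalloproteinase precursors. Its log2 value was 6.29 at the lowest, 7.79 at the median and 9.04 at the highest in old arrays, against 4.13, 4.95 and 5.79 in young arrays. Every old array lay above every young array, and groups without overlap were seen in 1.78% of all genes tested. Means and SDs over 10 arrays each were 7.80 ± 0.78 for old mice and 4.98 ± 0.48 for young mice, and the log2 difference was 2.82 ± 0.27 (SE) or 7.07-fold (limma adjusted p = 3.24e-07). In the 5 array sets the difference ran from 2.54 to 3.61. The index fit gave 2.57 (adjusted p = 0.000158), and the fit lacking the 7 arrays rich in Myl7 gave 2.49 (adjusted p = 0.00139). Old replicates 1, 2 and 7, the arrays with Myl7 below 10, had 7.72, 8.40 and 6.29, all above the young arrays.

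Mmp3 lies on mouse chromosome 9 among related genes, in the order Mmp13, Mmp12, Mmp1b, Mmp3, Mmp1a, Mmp10, Mmp8, Mmp20 and Mmp7. Of these 9 genes, Mmp3 was the only one detected. Mmp27, which lies between Mmp8 and Mmp20, was not among the genes examined and is not counted here. Mmp10, which encodes the closely related stromelysin 2, averaged 2.32 in old and 2.35 in young, and its highest value in any array was 2.38. Mmp13, a collagenase gene, averaged 2.86 in old and 2.85 in young. The remaining neighbours reached at most 3.80, the value of Mmp8 in old replicate 5. The promoter windows of 3 of these genes are shown because neighbours with the same motifs differed in detection. Those of Timp1 and Timp3 are shown as windows of inhibitor genes that were higher in every old array. Neither holds an AP-1 or a TATA match, and the same is true of the windows of Timp2 and of Timp4, a gene not called. Each window runs from 250 bases before to 50 bases after the annotated gene start, read 5′ to 3′ along the gene, from RefSeq on GRCm38.p6. Capitals mark matches, on either strand, to TGACTCA (the AP-1 motif), TATAAA (the TATA motif) and GGGCGG (GC box), and matches of different motifs did not overlap.
Mmp3, chr9:7445572-7445871, plus strand: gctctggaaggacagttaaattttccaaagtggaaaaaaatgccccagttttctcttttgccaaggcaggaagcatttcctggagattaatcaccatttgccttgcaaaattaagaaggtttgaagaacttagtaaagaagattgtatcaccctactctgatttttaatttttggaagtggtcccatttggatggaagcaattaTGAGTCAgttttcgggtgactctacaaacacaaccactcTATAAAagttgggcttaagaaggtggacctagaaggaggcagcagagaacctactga
Mmp10, chr9:7502092-7502391, plus strand: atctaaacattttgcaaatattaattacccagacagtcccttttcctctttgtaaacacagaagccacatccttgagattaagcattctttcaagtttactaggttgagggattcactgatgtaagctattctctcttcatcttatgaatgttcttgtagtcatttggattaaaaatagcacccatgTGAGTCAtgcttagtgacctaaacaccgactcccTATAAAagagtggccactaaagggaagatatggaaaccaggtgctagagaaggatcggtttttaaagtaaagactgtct
Mmp13, chr9:7272264-7272563, plus strand: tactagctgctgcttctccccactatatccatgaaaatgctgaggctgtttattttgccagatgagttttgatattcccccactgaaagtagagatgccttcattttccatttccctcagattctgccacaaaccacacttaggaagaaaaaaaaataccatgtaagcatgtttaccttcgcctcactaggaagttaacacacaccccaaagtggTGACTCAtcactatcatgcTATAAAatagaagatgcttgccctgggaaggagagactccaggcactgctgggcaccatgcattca
Timp1, chrX:20869916-20870215, plus strand: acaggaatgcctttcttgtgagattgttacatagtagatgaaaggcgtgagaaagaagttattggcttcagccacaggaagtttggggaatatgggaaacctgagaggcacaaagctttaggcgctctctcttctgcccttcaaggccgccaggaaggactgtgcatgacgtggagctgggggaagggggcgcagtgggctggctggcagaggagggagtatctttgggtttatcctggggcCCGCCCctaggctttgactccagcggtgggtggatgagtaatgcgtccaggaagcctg
Timp3, chr10:86300162-86300461, plus strand: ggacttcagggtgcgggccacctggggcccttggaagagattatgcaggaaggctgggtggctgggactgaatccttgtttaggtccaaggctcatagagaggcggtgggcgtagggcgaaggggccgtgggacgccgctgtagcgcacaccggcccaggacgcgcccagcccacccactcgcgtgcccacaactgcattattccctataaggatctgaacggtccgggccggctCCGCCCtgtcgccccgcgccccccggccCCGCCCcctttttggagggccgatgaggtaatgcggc

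In Mmp3 the AP-1 match began 46 bases and the TATA match 7 bases before the annotated start. In Mmp10 they began 63 and 29 bases before it, and in Mmp13 35 and 16 bases before it. Across the 9 chromosome 9 neighbours, 7 genes had an AP-1 match (all but Mmp8 and Mmp20), 9 had a TATA match and 0 had a GC box. Counted by window, 7 of their 11 windows held the AP-1 motif, 9 the TATA motif and 0 the GC box. Of all 32851 windows in the table, 5.20% held the AP-1 motif, 13.6% the TATA motif and 35.7% the GC box. Windows were found for 27 of the 42 genes, and Mmp2 was not among them. Outside the chromosome 9 group none of these windows held the AP-1 motif. Of the 11 detected genes with a window, 1 had an AP-1 match (Mmp3), 2 had a TATA match (Mmp3 and Adamts1) and 9 had a GC box. A match describes the letters alone and does not show that a factor binds there. Only exact matches were counted, so a window without a match can still hold a variant of the motif. The Timp1 window, for example, holds tgagtaa, which differs from TGAGTCA by 1 base.

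**Figure D2:**
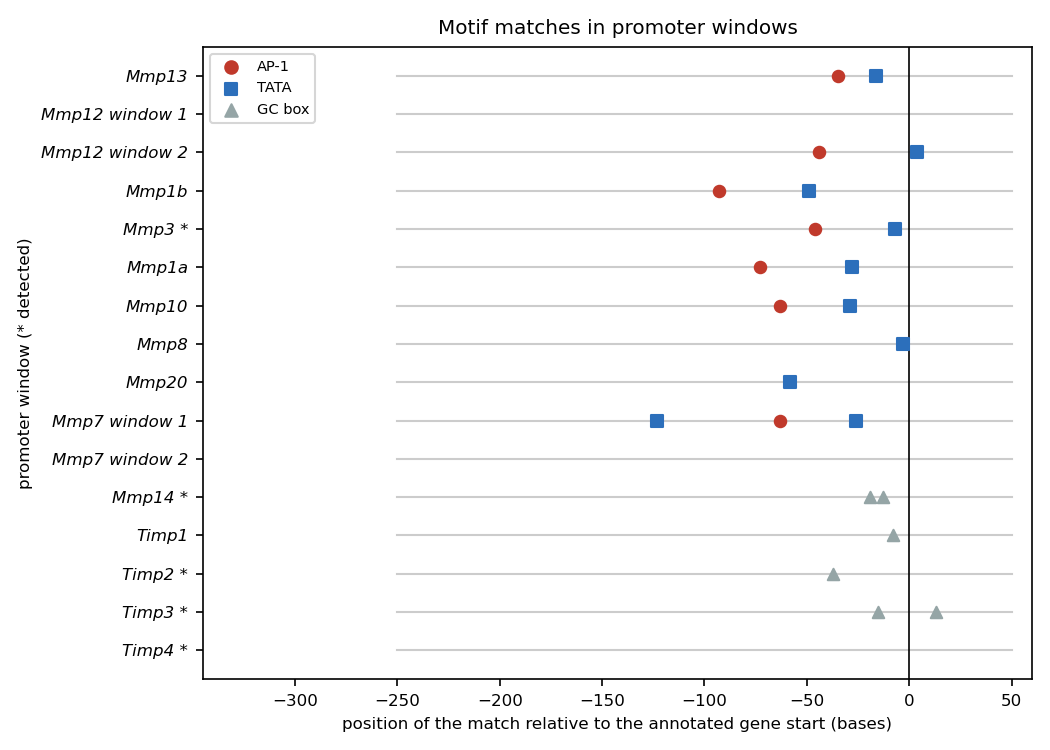
Matches to the AP-1 motif (circles), TATA motif (squares) and GC box (triangles) in promoter windows of the chromosome 9 neighbours, Mmp14 and the Timp genes, by position relative to the annotated gene start in bases, with an asterisk for detected genes. AP-1 and TATA matches fall in the chromosome 9 rows, of which only Mmp3 was detected, and GC boxes in those of Mmp14, Timp1, Timp2 and Timp3.

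The other called metalloproteinases were Mmp14, Mmp2 and Mmp23. Mmp14 encodes a membrane-anchored collagenase that, together with TIMP2, activates the precursor of MMP2, a gelatinase. Mmp14 was 6.64 at the lowest, 7.11 at the median and 7.85 at the highest in old arrays, against 5.76, 6.43 and 6.68 in young arrays. Of the old arrays 6 lay above all young ones, and the groups overlapped. The difference was 0.78 ± 0.18 (SE; limma adjusted p = 0.00386), and 0.60 to 1.10 in the array sets. Mmp2 was 6.34, 7.70 and 8.12 at the lowest, median and highest in old arrays, against 6.52, 7.07 and 7.28 in young arrays. Here 7 old arrays lay above all young ones and 1, old replicate 1, lay below them all. The difference was 0.60 ± 0.19 (SE; limma adjusted p = 0.0284). This call is near the threshold: the adjusted p was 0.0509 without old replicate 3, 0.0536 without old replicate 5, 0.0552 without old replicate 6 and 0.0511 without young replicate 20. With the mean of its detected probe sets Mmp2 was at 0.51 and not called (limma adjusted p = 0.0549). Mmp23, which encodes a membrane-bound member of the family, was 5.02, 5.41 and 6.43 at the lowest, median and highest in old arrays, against 4.69, 4.99 and 5.22 in young arrays. For Mmp23 8 old arrays lay above all young ones, with old replicate 9 the highest, and the difference was 0.51 ± 0.13 (SE; limma adjusted p = 0.00888). After quantile normalization it was 0.39 and no longer called (adjusted p = 0.0661).

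The calls of these 3 genes depended on how the atrial signal was handled. With the atrial index, Mmp14 was at 0.42 (limma adjusted p = 0.277), Mmp2 at 0.38 (adjusted p = 0.417) and Mmp23 at 0.36 (adjusted p = 0.250). Without the 7 old arrays they were at 0.30, 0.12 and 0.25, with adjusted p of 0.481, 0.837 and 0.304. In old replicates 1, 2 and 7, Mmp14 lay between 6.64 and 6.66, inside the young range. The 7 old arrays with high Myl7 had Mmp14 values between 6.65 and 7.85, and 6 of them exceeded every young array. The index was high in old arrays only, so it and age are poorly separated, and whether atrial tissue accounts for the difference was not tested. With the index and the array sets in 1 fit, Mmp14 was called (0.73, limma adjusted p = 0.00539). Mmp2 (0.49, adjusted p = 0.114) and Mmp23 (0.49, adjusted p = 0.090) were not. The sets came from these same data, so p-values of that fit can be too small.

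**Figure D3:**
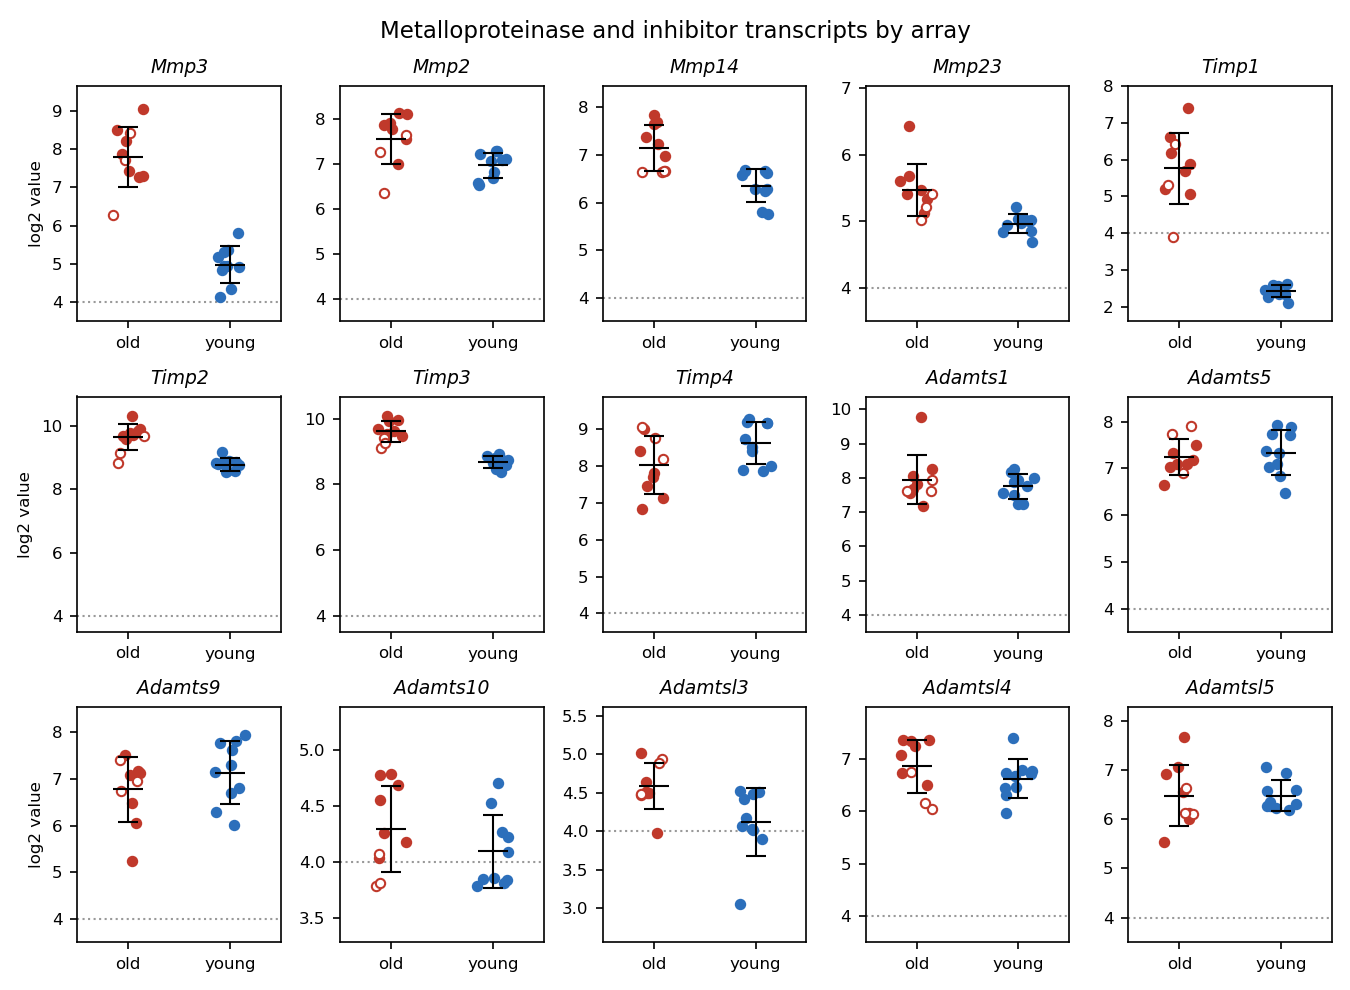
Log2 values of the 14 detected genes and Timp1 in old (left in each panel, red) and young (right, blue) arrays, 10 each, with mean and SD bars and a dotted line at the detection value of 4. Open red circles are the 3 old arrays with Myl7 below 10. Old and young points do not overlap for Mmp3, Timp1 and Timp3.

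Of the inhibitor genes, Timp1, Timp2 and Timp3 were higher in old hearts, Timp1 in a fit without a filter, while Timp4 did not pass the test. Timp1 encodes the inhibitor best known for its induction in inflamed and injured tissue. It exceeded 4 in 9 old arrays and in 0 young ones, 1 array short of the detection filter, and was therefore not among the 14 genes tested. Its log2 value was 3.90 at the lowest, 5.78 at the median and 7.40 at the highest in old arrays, against 2.10, 2.41 and 2.61 in young arrays. The groups did not overlap, and old replicates 1, 2 and 7, with 5.31, 6.43 and 3.90, also lay above all young arrays. The 1.78% of genes without overlap refers to the 9276 tested genes, which leave out Timp1. No such share was taken over the genes without a filter. Since the young arrays are all below the detection value, the size has only a lower bound: the old mean of 5.76 ± 0.97 (SD, n = 10) lies at least 3.39-fold above a level of 4. In a limma fit of all 18194 genes without a filter its difference was 3.35 ± 0.30 (SE; adjusted p = 2.24e-06), where 23.9% of all genes were called, 7.15% higher and 16.7% lower. In fits without a filter it was also called with the atrial index (3.16, adjusted p = 0.000445) and without the 7 old arrays (2.80, adjusted p = 0.0017).

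Timp3 encodes an inhibitor that binds to the matrix and also blocks ADAM17 and several ADAMTS proteases. It was 9.12 at the lowest, 9.59 at the median and 10.08 at the highest in old arrays, against 8.39, 8.70 and 8.93 in young arrays. All 10 old arrays exceeded all young ones. Means and SDs over 10 arrays each were 9.61 ± 0.32 for old mice and 8.68 ± 0.17 for young mice, and the difference was 0.93 ± 0.11 (SE) or 1.91-fold (limma adjusted p = 7.47e-06). In the array sets it ran from 0.51 to 1.52. Timp3 stayed called with the atrial index (0.72, adjusted p = 0.00364) and without the 7 old arrays (0.59, adjusted p = 0.0187).

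Timp2, whose product both inhibits metalloproteinases and takes part in activating MMP2, was 8.84, 9.70 and 10.33 at the lowest, median and highest in old arrays, against 8.53, 8.81 and 9.18 in young arrays. Of the old arrays 8 lay above all young ones. The difference was 0.86 ± 0.14 (SE) or 1.82-fold (limma adjusted p = 0.000165), and 0.22 to 1.29 in the array sets. Timp2 was called with the atrial index (0.57, adjusted p = 0.0455) and not without the 7 old arrays (0.44, adjusted p = 0.187).

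Timp4, the inhibitor with the most heart-restricted expression, was 6.83 at the lowest, 7.995 at the median and 9.05 at the highest in old arrays, against 7.87, 8.63 and 9.28 in young arrays. In 5 old arrays it was below all young ones, and in the other 5 it lay within the young range. The difference of −0.59 ± 0.28 (SE) did not pass the test (limma adjusted p = 0.147). Its sign turned in the index fit (0.14, adjusted p = 0.840) and in the fit lacking the 7 old arrays (0.043, adjusted p = 0.961). In old replicates 1, 2 and 7 Timp4 had 8.19, 8.75 and 9.05, while the other old arrays reached down to 6.83.

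The change of Timp4 was tested against those of the other detected inhibitors as a within-array difference. Over the 3 pairs, the Timp3 minus Timp4 difference averaged 1.58 ± 0.94 (SD) for old mice and 0.061 ± 0.53 for young mice, a shift of 1.52 (two-sided permutation test, p = 3e-04, adjusted p = 9e-04), and 8 of 10 old arrays lay above all young ones. For Timp2 minus Timp4 the shift was 1.46 (permutation p = 0.00146, adjusted p = 0.00219). Timp2 and Timp3 differed by −0.068 in their change (permutation p = 0.443, adjusted p = 0.443). With the atrial index the shifts against Timp4 were 0.58 and 0.43 (Freedman-Lane permutation, adjusted p = 0.209 and 0.247). Without the 7 old arrays they were 0.54 and 0.39 (exact permutation, adjusted p = 0.353 for both).

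**Figure D4:**
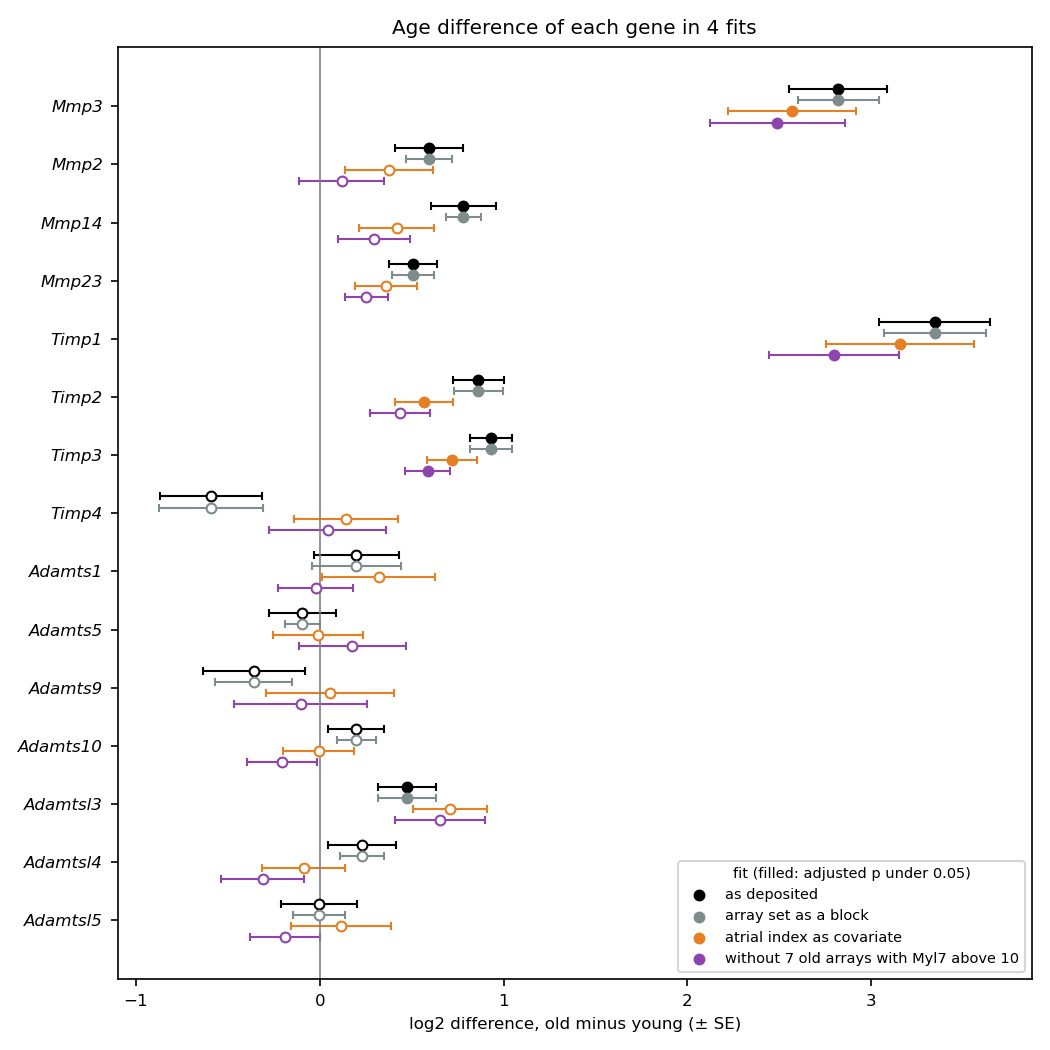
Log2 difference, old minus young, with SE bars for the 14 detected genes and Timp1 in 4 limma fits: as deposited, with the array set as a block, with the atrial index as a covariate, and with 3 old arrays after leaving out those with Myl7 above 10. Filled points had an adjusted p under 0.05, and the Timp1 fits used no filter. Mmp3, Timp1 and Timp3 are filled in all 4 fits.

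Among the ADAMTS proteases, none of the 4 detected genes passed the test (limma; 0 also at an unadjusted p under 0.05). Adamts1 encodes a protease that cuts versican and aggrecan, and its value was 7.18, 7.74 and 9.77 at the lowest, median and highest in old arrays, against 7.24, 7.81 and 8.24 in young arrays. Old replicate 5 alone had 9.77, and the difference of 0.20 (adjusted p = 0.596) was −0.0040 without it. Adamts5, which encodes a main aggrecanase, was 6.65, 7.14 and 7.91 in old arrays, against 6.47, 7.35 and 7.94 in young arrays, a difference of −0.095 ± 0.18 (SE; adjusted p = 0.769). Adamts9, a versican-cutting protease gene, was 5.24, 7.02 and 7.52 in old arrays, against 6.01, 7.22 and 7.94 in young arrays, a difference of −0.36 ± 0.28 (SE; adjusted p = 0.402). For Adamts10, whose product associates with fibrillin, the values were 3.79, 4.22 and 4.78 in old arrays, against 3.78, 3.97 and 4.70 in young arrays, close to the detection value. The groups overlapped for all 4 genes.

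Of the ADAMTS-like genes, Adamtsl3 was called. It was 3.98, 4.51 and 5.01 at the lowest, median and highest in old arrays, against 3.06, 4.12 and 4.52 in young arrays, so it too lay near the detection value. The difference was 0.47 ± 0.16 (SE; limma adjusted p = 0.0415). The call was lost when any of 13 arrays was left out (old replicates 2, 3, 4, 5, 7, 8 and 9 and young replicates 12, 13, 14, 16, 18 and 19), with adjusted p up to 0.0724, and the difference was 0.36 without young replicate 12. It was also lost after quantile normalization (0.38, adjusted p = 0.115), with the atrial index (0.71, adjusted p = 0.0502) and without the 7 old arrays (0.65, adjusted p = 0.189). The call was lost as well with index and sets together (0.69, limma adjusted p = 0.0731) and when every probe set was tested alone (limma adjusted p = 0.0518). Adamtsl4, whose product binds fibrillin microfibrils, was at 0.23 ± 0.18 (SE; adjusted p = 0.419), and Adamtsl5 at −0.0043 ± 0.20 (adjusted p = 0.992). For Adamtsl5 2 old arrays lay above all young ones and 5 below them.

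Where a gene had several detected probe sets, these were compared as a check. For Mmp14, Mmp23, Timp2, Timp3 and Timp4 the probe sets of a gene had the same sign. The 5 of Timp2 ran from 0.56 to 1.21, with 3 called when every probe set was tested alone, and the 4 of Timp3 ran from 0.78 to 0.93, with 2 called. Both probe sets of Mmp14 (0.64 and 0.78) and of Mmp23 (0.51 and 0.60) were called. For Mmp2 they were at 0.42 and 0.60, and 1 was called. The 3 probe sets of Adamts9 disagreed in sign, at −0.36, 0.0056 and 0.13, and so did those of Adamts5, between −0.095 and 0.017.

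**Figure D5:**
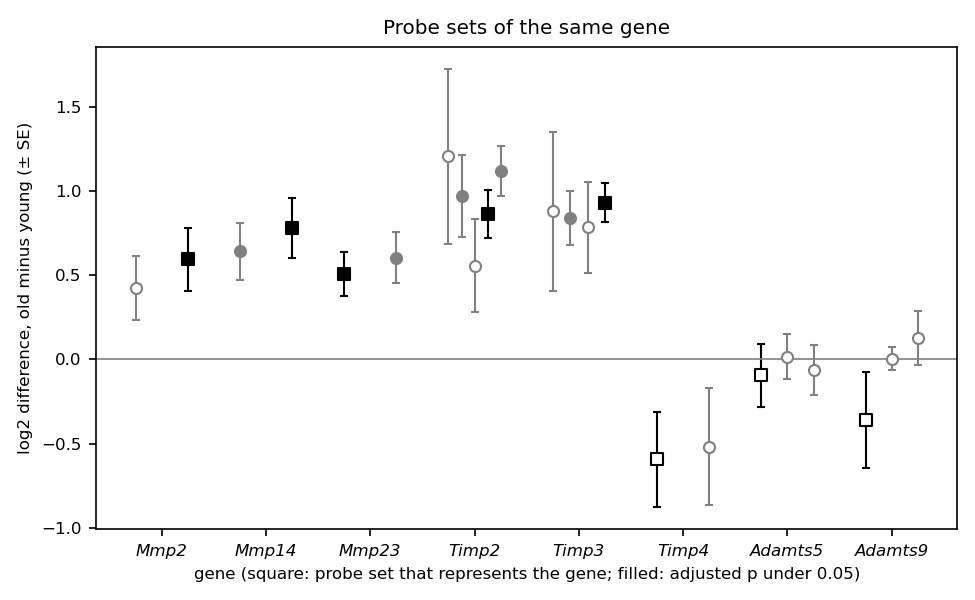
Log2 difference, old minus young, with SE bars for each detected probe set of the 8 genes that have several. Squares are the probe sets that represent the gene, and filled symbols had an adjusted p under 0.05 over all detected probe sets. The Timp2 and Timp3 symbols all lie above 0 and the Adamts9 symbols on both sides of it.

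Other genes of matrix proteolysis were described from lists, read against the same 11.2% higher and 7.49% lower over all genes tested. Of 18 tested genes on a list of matrix substrates, 10 were higher in old and 0 lower, with a median of 0.70. The list was not limited to substrates of the enzymes detected here. Comp, the cartilage oligomeric matrix protein that several ADAMTS proteases cut, was at 2.93, Vwf at 2.27, the large proteoglycan gene Vcan at 1.87 and the small one Bgn at 1.26 (limma adjusted p of at most 9.53e-05). Of 10 tested activators and inhibitors, 6 were higher and 1 lower, with Thbs1 (thrombospondin 1) at 2.64, Lrp1, a receptor that clears metalloproteinases, at 0.93, Plat, tissue plasminogen activator, at 0.67 and Pcolce, an enhancer of procollagen trimming, at 0.63. Of 16 tested genes listed as inducers of metalloproteinase genes, 4 were higher and 0 lower. They were the oncostatin M receptor gene Osmr (1.34), Tgfb2 (0.83), Tgfb3 (0.82) and the tumour necrosis factor receptor gene Tnfrsf1a (0.61). Whether a listed gene raises or lowers any of the metalloproteinase genes described here was not tested. The cytokine genes Il1a, Tnf, Il6 and Osm, which induce metalloproteinases, were not tested, with means of at most 2.44 in either group. Il1b was tested and not called (−0.098, limma adjusted p = 0.856). The tested Fos and Jun family genes were not called either: Fos (−0.38), Fosl2 (−0.37), Jun (−0.18), Junb (0.47) and Jund (0.41). Of 9 tested genes of related metalloprotease families, 3 were higher and 0 lower, Adam22 (1.02), Ece1 (0.59) and Adam15 (0.38). Adam9 was at 0.21 (limma adjusted p = 0.0972). Membership of such a family does not show that a product is an active protease. With the atrial index 5 listed substrates, 2 activators and inhibitors, 2 listed inducers and 1 gene of the related families were called. Over all genes tested, 3.74% were called in that fit.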

How the data were processed

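The authors deposited 1 table of log2 values for 45101 probe sets on 20 arrays; per the submitters' processing notes they were made with GCRMA, whose version is not given in the sources used here, and their range fits a log2 scale (0.976 to 16, array medians 3.07 to 3.20). GCRMA compresses differences near its floor. The platform annotation gave gene names, updated by gene identifier to GRCm38.p6. Each gene's detected probe set of highest mean stood for it, giving 9276 tested genes, and old was compared with young by limma 3.58.1 (R 4.3.3) without covariates. Alternatives were quantile normalization, median centring, no filter or one at 6, probe set means, single probe sets, an intensity trend, the array sets as a block, the atrial index, leaving out the 7 old arrays rich in Myl7, and leaving out each array. Within-array differences of the detected Timp genes were tested by permutation (100000 resamples). The limma script was tested on simulated data. Array sets came from average linkage clustering of residual correlations (silhouette 0.35). Named genes were all detected members and up to 4 tested genes with the smallest p of each pathway list; others were chosen after their values were seen. The genes and lists were chosen with earlier results of these data known. Groups came from the titles. Precision is limited by the number of arrays.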

Additional observations from a re-analysis of the deposited data

Results flagged for a closer look

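Among the 15 genes described (30 groups of 10 arrays), 4 single arrays lay apart from their group by Dixon's criterion, where chance alone flags about 1 group in 20. Adamts1 was 9.77 in old replicate 5, against 8.26 in the next old array. Mmp23 was 6.43 in old replicate 9, with the next at 5.68. Adamtsl3 was 3.98 in old replicate 6, with the next old array at 4.47, and 3.06 in young replicate 12, with the next young array at 3.90.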

How the results depend on the processing

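The 7 called genes became 3 with the atrial index (Mmp3, Timp2 and Timp3), 3 with the index and the array sets together, an alternative chosen after seeing the data (Mmp3, Mmp14 and Timp3), and 2 when the 7 old arrays rich in Myl7 were left out (Mmp3 and Timp3). Without a filter 13 of the 42 genes were called, 9 higher and 4 lower, against 7.15% higher and 16.7% lower over all 18194 genes; the 4 lower (Adamts19, Adamts20, Mmp16 and Mmp20) were below 4 in every array and differed by −0.041 to −0.12. Under quantile normalization, median centring, the filter at 6 and probe set means, 5 to 7 were called. Over all genes these fits called 1879 of 9305, 1667 of 9274, 1298 of 6623 and 1664 of 9276. With single probe sets, an intensity trend, the array set block and centring on the tested genes (added later), 6 to 7 were called. Over all features these called 2266 of 15312 probe sets, and 1761, 3344 and 1950 of 9276 genes. Without 1 array it was 5 to 7, against 1391 to 1830 of 9276 genes. The filter at 6 removed Adamts10, Adamtsl3 and Mmp23. The 2 Timp pairs that differed became 0 with the index and 0 without the 7 arrays, and stayed 2 otherwise. Signs turned only for genes that were not called. Without the 7 arrays Adamts1 was at −0.022, Adamts10 at −0.21, Adamts5 at 0.18, Adamtsl4 at −0.31 and Timp4 at 0.043. With the index Adamts10 was at −0.0063, Adamts9 at 0.056, Adamtsl4 at −0.088, Adamtsl5 at 0.11 and Timp4 at 0.14. With index and sets Adamts5 was at 0.019, Adamtsl5 at 0.27 and Timp4 at 0.21, and after median centring Adamtsl5 was at 0.028. With 1 array left out Adamts1 ran from −0.0040 to 0.28 and Adamtsl5 from −0.14 to 0.10. The cause of these shifts was not tested. No paired analysis was possible because old and young mice share no replicate numbers; the array sets used as a block were found from the data. Differences of genes below 4 are limited by the GCRMA floor.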
